A study of Homo sapiens with 17 samples.

Results

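The transcriptome of KYSE140 cells after CRISPR knockout of SOX2 was described across all genes. KYSE140 is an oesophageal squamous carcinoma cell line. The experiment comprised 5 of the 17 RNA-seq libraries of the series and was chosen by label: 3 libraries of cells infected with a guide RNA against SOX2 (sg-SOX2#2, sg-SOX2#3 and sg-SOX2#4, here guide 2, guide 3 and guide 4), and 2 control libraries with the guides sg-AAVS1 and sg-Chr2.2. All 5 cell pools expressed Cas9 from a lentiviral vector under blasticidin selection and carried a guide vector under puromycin selection. The controls therefore also carried Cas9 and a guide that cuts, at the AAVS1 site or at a site on chromosome 2, so that the comparison was between cutting at SOX2 and cutting elsewhere. Cells were analysed as infected pools and not as clones, so a pool may hold cells with no edit, and the SOX2 guides edit the coding sequence, so that the SOX2 transcript level is no measure of SOX2 protein. Each library had its own guide, and nothing in the sources used here says that the libraries of a group came from separate experiments. The p-values below measure the spread between these libraries.

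SOX2 is a transcription factor of the SOX family, which binds DNA through a high mobility group domain. It is known for its role in pluripotent and neural progenitor cells and in the basal progenitors of the oesophagus, and its gene lies in a part of chromosome 3q that is often amplified in squamous carcinomas, close to that of TP63, the master regulator of stratified epithelia. In a stratified epithelium, basal cells divide on a laminin-rich basement membrane, and their daughters leave the cell cycle, change their keratins and build a cornified envelope as they move up.

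The libraries held between 7260730 (Chr2.2) and 13484784 (guide 2) estimated counts over genes, and 13978 genes passed the filter on low counts. The 10 genes with the most counts took 6.25% and 6.23% of the AAVS1 and Chr2.2 libraries, and 10.7%, 10.3% and 9.83% of those of guides 2, 3 and 4. Levels below are CPM, counts scaled to a common library total with TMM factors, which leave the median gene in place (median log2 fold change of all genes tested, -0.007). By library size alone the median was -0.21 and by log2(TPM + 1) it was -0.17, so that changes are given relative to the bulk of genes. Guide 4 stood apart from guides 2 and 3. Compared gene by gene, the counts of guides 2 and 3 differed by a chi-square of 2.77 per degree of freedom, close to the 2.96 between the 2 controls, whereas guide 4 differed from guide 2 by 12.4 and from guide 3 by 6.35. Counts of changed genes are therefore also given without it.

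SOX2 (chr3:181429713-181432224, GRCh37/hg19) was measured at 605 and 638 CPM in the AAVS1 and Chr2.2 libraries, and at 184, 217 and 368 CPM with guides 2, 3 and 4. All 3 knockout libraries lay below both controls, and guide 4 left the most SOX2 transcript. The mean was 621 ± 23.3 CPM (SD, n = 2) in controls and 256 ± 97.9 CPM (SD, n = 3) after knockout. The log2 fold change was -1.28 (SE 0.38), which did not pass in edgeR's quasi-likelihood test with robust dispersion (Benjamini-Hochberg adjusted p = 0.0716). Without guide 4 it was -1.63 with an adjusted p of 2.75e-15 in the same edgeR test, and with all 3 guides but without the robust option, an alternative chosen after the data were seen, the adjusted p was 2.39e-04. The call thus depended on guide 4 and on how the dispersion was estimated. Guide 4 exceeded the other 2 guides by 0.88 on the log2 scale (SE 0.088, edgeR adjusted p = 1.19e-06).

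The transcripts around SOX2 did not follow one another. SOX2-OT (chr3:180707550-181554668), the long noncoding RNA whose gene encloses SOX2, stood at 52.2 and 60.3 CPM in the controls and at 6.06, 5.68 and 10.96 CPM with guides 2, 3 and 4. It fell by 2.88 on the log2 scale (SE 0.22, edgeR adjusted p = 1.11e-05), to a 7.37-fold lower level. SOX2 lies within SOX2-OT, and the strand setting of the counting is not given in the sources used here, so reads of the 2 genes may not be fully separated. LINC01206, listed under its clone name RP11-416O18.1, is another noncoding RNA of the locus. Its level was 215 and 256 CPM in the controls, 9.25 and 4.81 CPM with guides 2 and 3, and 194 CPM with guide 4. Guide 4 therefore left LINC01206 near the control level while the other guides did not, and its change over all 3 guides (log2 fold change -1.75, SE 1.67, edgeR adjusted p = 0.464) did not pass, whereas without guide 4 it was -4.94 (edgeR adjusted p = 1.36e-07). FXR1 and ATP11B, protein-coding genes whose promoters contacted the SOX2 enhancer region in the paper's chromatin contact data, were not called. FXR1, an RNA-binding protein gene, had a log2 fold change of -0.12 (edgeR adjusted p = 0.212), with overlapping groups. ATP11B, a lipid flippase gene, was at 783 and 874 CPM in controls and 1011, 1110 and 925 CPM after knockout, a log2 fold change of 0.29 that lay under the 1.5-fold minimum.

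**Figure D1:**
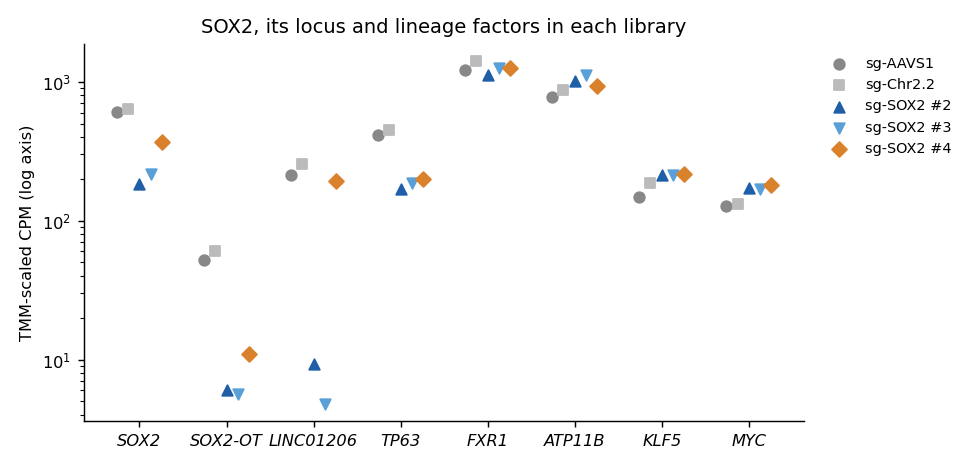
Levels of 8 genes in each of the 5 KYSE140 libraries, in TMM-scaled CPM on a log axis, with 1 point per library and colours for controls and knockout guides. SOX2, SOX2-OT and TP63 lie lower with every SOX2 guide than in both controls, whereas LINC01206 with guide 4 (194) lies near the controls (215 and 256).

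TP63 (chr3:189349178-189615065) was the 1 member of the squamous regulators that fell. Its level was 413 and 449 CPM in the AAVS1 and Chr2.2 libraries and 170, 188 and 199 CPM with guides 2, 3 and 4, with no overlap between groups. The log2 fold change was -1.22 (SE 0.075, edgeR adjusted p = 5.25e-10). KLF5, a zinc finger factor of proliferating squamous cells, and MYC, the growth factor-responsive oncogene, were slightly higher in all 3 knockout libraries (log2 fold changes 0.35 and 0.43) but under the 1.5-fold minimum. HEXIM1, an inhibitor of the elongation factor P-TEFb, rose from 43.1 and 43.4 CPM to 84.9, 83.2 and 76.0 CPM with guides 2, 3 and 4 (log2 fold change 0.91, edgeR adjusted p = 1.87e-07).

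A gene was called when its adjusted p was under 0.05 in edgeR's quasi-likelihood test and its level changed more than 1.5-fold. Of the 13978 genes tested, 4176 (29.9%) were called after SOX2 knockout, of which 2272 (16.3% of genes tested) rose and 1904 (13.6%) fell. These shares are the background against which the gene groups below are read. The largest changes were mostly increases: 687 of the called genes rose and 242 fell by more than 4-fold, and 293 rose and 40 fell by more than 16-fold. Regardless of any test, all 3 guides lay above both controls at 34.3% of the genes tested and below both at 33.9%. The split of the calls depended on the scale: 54.4% of them were higher with TMM factors, 35.8% with library size alone and 38.9% with limma on log2(TPM + 1), where the median gene itself lay below 0. At an unadjusted p under 0.05, 7977 genes differed. Without guide 4, 4258 genes were called, of which 2275 rose and 1983 fell. Risen and fallen genes were alike in transcript length, with medians of 2330 and 2446 bases against 2231 bases for all genes tested. Of the called genes, 1341 had estimated counts that were not whole in at least 1 library, which marks reads shared with other genes, and their values are less certain.

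The programmes of stratified squamous differentiation rose most. Of the 56 cornified envelope genes listed, 47 passed the filter, of which 40 rose and 1 (FLG) fell. Of 17 keratins of stratified epithelia tested, out of 24 listed, 15 rose and 0 fell. All 9 clade B serpins tested, out of 13 listed, rose. They are protease inhibitors abundant in squamous cells. The filter keeps a gene counted in only one group, so members near absent in the controls were tested only through their knockout counts. The shares risen and the medians are therefore partly set by the filter, here and in the lists below. The median log2 fold changes of these lists were 6.51, 3.56 and 5.47, against -0.007 over all genes tested. In 10 of the 47 cornified genes no control library had a count. With such genes at the bound that 3 counts would give, the medians were 6.24, 3.56 and 4.82. Summed over its members, the cornified list rose from 523 and 491 CPM in the controls to 15120, 12480 and 8336 CPM with guides 2, 3 and 4, so that it differed between guides as well. The number of cornified genes that passed was 24 without the AAVS1 library, 27 without Chr2.2 and 44 without guide 4. Without guide 4 all 17 keratins and all 9 serpins rose.

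**Figure D2:**
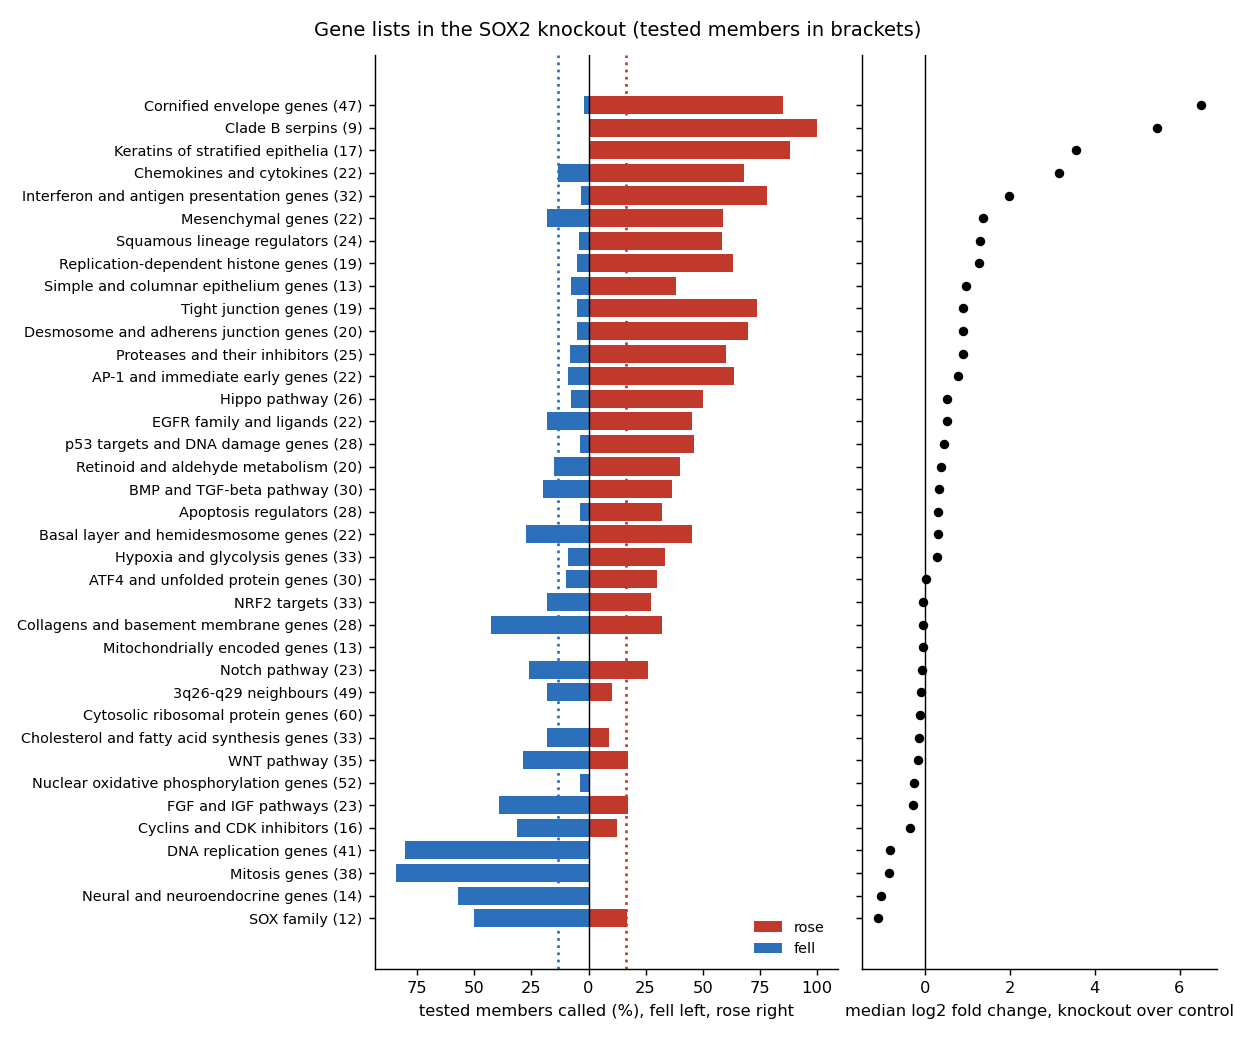
Share of the tested members of each gene list that rose or fell after SOX2 knockout (bars, percent; dotted lines, the shares over all genes tested, 16.3% and 13.6%) and median log2 fold change of each list (dots), for lists with 5 or more members tested. Cornified envelope genes, keratins and clade B serpins have the highest medians, and DNA replication and mitosis genes have no risen member.

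Cornified envelope proteins are cross-linked under the membrane of a differentiating keratinocyte by transglutaminases. IVL (involucrin, chr1:152881022-152884362) was at 0.199 and 0.254 CPM in the controls and at 908, 783 and 492 CPM with guides 2, 3 and 4. The ratio of knockout to control was 3320 (95% counting interval 1300 to 12200), since the controls held 4 counts together (edgeR adjusted p = 0.0015). CDSN, the corneodesmosin that holds cornified cells together, had no count in either control and 284, 250 and 125 CPM after knockout, which is at least 1310-fold higher (edgeR adjusted p = 0.0279). The bounds were at least 387-fold for RPTN (repetin, an envelope precursor), 263-fold for KLK11 (a kallikrein protease of the cornified layer) and 244-fold for LY6D (a keratinocyte surface protein). SBSN (suprabasin) had a ratio of 2820 (interval 1100 to 10300) and KLK5, a desquamation protease, one of 5120 (interval 920 to 202000). All of these were highest with guide 2 and lowest with guide 4. The calls for CDSN, LY6D, SBSN, KLK5 and CNFN were lost when either control library was left out, those for CDSN and LY6D also without guide 2 or guide 3, and that for RPTN without AAVS1 or guide 3, with edgeR adjusted p-values between 0.0505 (RPTN without AAVS1) and 0.195 (LY6D without guide 3). These intervals and bounds cover counting error only.

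Members with moderate control levels gave firmer values. SPRR1B, a small proline-rich envelope protein, was at 26.9 and 19.8 CPM in the controls and 3039, 2583 and 1650 CPM with guides 2, 3 and 4 (log2 fold change 6.69, SE 0.50, edgeR adjusted p = 0.00203). PPL and EVPL, the plakins that link the envelope to desmosomes and keratin filaments, rose by log2 fold changes of 1.88 (edgeR adjusted p = 6.72e-12) and 1.97 (edgeR adjusted p = 4.12e-10). SPRR3 was an exception to the order of the guides, with 487 and 328 CPM for guides 2 and 3 and 862 CPM for guide 4, from 6.18 and 2.79 CPM in controls. KRT13, the keratin of suprabasal oesophageal cells, showed the same order at 103, 70.5 and 228 CPM from 12.4 and 17.4 CPM (log2 fold change 3.19, edgeR adjusted p = 0.0526, not called). FLG, the filaggrin precursor of the epidermal granular layer, fell from 13.7 and 16.3 CPM to 10.9, 8.45 and 5.32 CPM (log2 fold change -0.84, edgeR adjusted p = 0.0108). The call was lost without the Chr2.2 library, in one fit of all 17 libraries (edgeR adjusted p = 0.434) and with limma on log2(TPM + 1) (limma adjusted p = 0.155). SPRR1B, SPRR3 and KRT13 were chosen after their values were seen.

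The calprotectin genes S100A8 and S100A9 and psoriasin, S100A7, are alarmins that keratinocytes make under stress. None had a count in either control. S100A8 reached 521, 353 and 126 CPM with guides 2, 3 and 4, S100A9 reached 650, 448 and 147 CPM, and S100A7 reached 161, 142 and 43.1 CPM. All guides were above both controls, by at least 1990-fold, 2480-fold and 689-fold. With robust dispersion none was called (edgeR adjusted p = 0.0585, 0.0594 and 0.0758), and the levels with guide 4 were the lowest in each case. For S100A7 the adjusted p was 1.28e-20 in edgeR without guide 4. S100A8 and S100A9 were named after their values were seen.

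ECM1 and SCEL are shown with their promoters because they combined a clear rise with the motif that, of 5 searched, was most frequent in the promoters of the cornified list. ECM1, a secreted matrix protein of the epidermis, rose from 3.49 and 3.94 CPM to 36.9, 35.3 and 32.2 CPM with guides 2, 3 and 4 (log2 fold change 3.23, SE 0.17, edgeR adjusted p = 5.3e-11). SCEL, sciellin, a precursor of the envelope, rose from 8.27 and 9.77 CPM to 331, 284 and 234 CPM (log2 fold change 4.98, edgeR adjusted p = 8.75e-07). SCEL was chosen after its values were seen. Each sequence runs 5′ to 3′ on the strand of the gene, from 250 bases before to 50 bases after the start of the gene in RefSeq (GRCh38.p14; ECM1, chr1:150507859-150508158, plus strand; SCEL, chr13:77535456-77535755, plus strand), and capitals mark the AP-1 motif TGANTCA.
ECM1: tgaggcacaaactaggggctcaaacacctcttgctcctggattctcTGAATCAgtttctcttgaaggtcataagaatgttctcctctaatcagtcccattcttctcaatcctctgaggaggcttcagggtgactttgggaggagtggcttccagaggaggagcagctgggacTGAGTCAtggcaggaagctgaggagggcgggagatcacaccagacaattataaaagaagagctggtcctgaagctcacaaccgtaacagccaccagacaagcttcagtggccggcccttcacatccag
SCEL: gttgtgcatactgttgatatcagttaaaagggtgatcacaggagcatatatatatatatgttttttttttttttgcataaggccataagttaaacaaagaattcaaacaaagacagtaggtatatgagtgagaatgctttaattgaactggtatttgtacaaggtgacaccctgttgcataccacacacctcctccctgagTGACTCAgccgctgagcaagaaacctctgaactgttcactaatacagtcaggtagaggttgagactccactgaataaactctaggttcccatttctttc
Of the 13978 genes tested, 9740 had such a promoter. TGANTCA, which is its own reverse complement, occurred in 36.8% of the promoters of the cornified list (14 of 38), in 9.65% of those of risen genes, in 3.37% of those of fallen genes and in 4.92% of all 9740. A SOX core motif, CATTGT on either strand, occurred in 6.89% of the promoters of risen genes, 6.00% of those of fallen genes and 6.12% of all. The motifs were chosen with the results known, and the shares are descriptions without a test.

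After knockout the keratins had the highest summed level of the 41 lists. KRT17, a keratin of injured and squamous cancer epithelium, rose from 1402 and 1463 CPM to 19630, 17630 and 13290 CPM with guides 2, 3 and 4 (log2 fold change 3.56, SE 0.22, edgeR adjusted p = 3.8e-04). KRT6A, a keratin of activated keratinocytes, rose from 5692 and 5569 CPM to 25030, 22720 and 19330 CPM (log2 fold change 1.99, edgeR adjusted p = 1.74e-08). KRT5, the basal layer keratin, rose from 3504 and 3422 CPM to 14020, 13680 and 12070 CPM (log2 fold change 1.94, edgeR adjusted p = 1.19e-12). Thus the basal keratin rose together with those of activated and injured epithelium. KRT16, the partner of KRT6A, rose from 33.6 and 40.0 CPM to 6073, 5040 and 2949 CPM (log2 fold change 6.9985, edgeR adjusted p = 0.00254), and KRT75, a hair follicle keratin, from 1.89 and 1.78 CPM to 105, 102 and 89.8 CPM (log2 fold change 5.74, edgeR adjusted p = 2.43e-14). Summed over the list, keratins rose from 11113 and 10980 CPM to 73891, 67054 and 52940 CPM. These genes have close paralogues and pseudogenes, and KRT6A had estimated counts that were not whole, so their reads may be split between family members. KRT6C and KRT13 were the 2 keratins tested that were not called.

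The regulators of the squamous programme divided. Of 24 tested, 14 rose, 1 fell and 9 were not called, with a median log2 fold change of 1.29. ZNF750, a TP63 target needed for terminal differentiation, rose from 2.69 and 2.29 CPM to 63.6, 57.7 and 51.1 CPM (log2 fold change 4.51, SE 0.17, edgeR adjusted p = 1.24e-12). ELF3, an epithelium-specific ETS factor, rose from 3.69 and 4.19 CPM to 97.3, 84.5 and 90.5 CPM (log2 fold change 4.54, edgeR adjusted p = 7.99e-14), and the related EHF rose by 3.44. KLF4, which drives barrier formation, rose from 66.5 and 72.4 CPM to 199, 193 and 185 CPM (log2 fold change 1.47, edgeR adjusted p = 1e-10). Its call was lost in one fit of all 17 libraries (edgeR adjusted p = 0.0676). The grainyhead factors GRHL1 and GRHL3, also chosen after their values were seen, rose by 2.24 and 1.52, while GRHL2 (log2 fold change -0.46), PAX9 (-0.02) and KLF5 were not called. For ZNF750, ELF3, EHF and KLF4 the 3 guides lay close together, far above both controls.

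**Figure D3:**
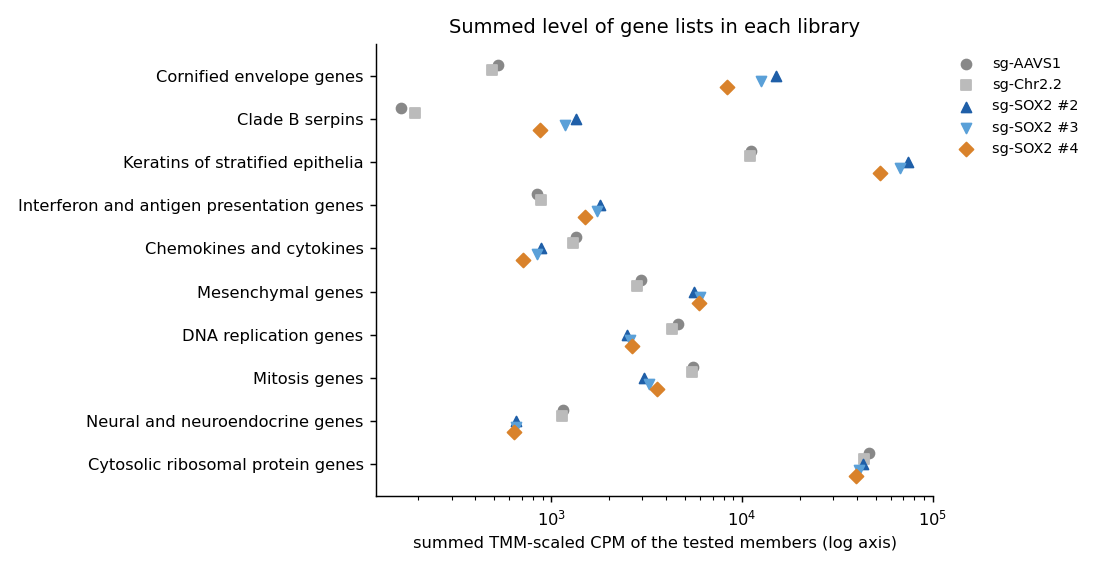
Summed level of 10 gene lists in each of the 5 libraries, in TMM-scaled CPM on a log axis, with 1 point per library. Controls and SOX2 guides are apart in the lists shown, least so for the ribosomal proteins, where the nearest sums were 43506 (Chr2.2) and 42776 (guide 2). In addition, guide 4 is the lowest of the 3 guides for the cornified list (8336 against 15120 and 12480), and the chemokine sum is lower after knockout although most of its members rose.

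Junction genes rose. Of 20 desmosome and adherens junction genes tested, 14 rose and 1 fell (median log2 fold change 0.89), and of 19 tight junction genes, 14 rose and 1 fell (0.91), the latter ILDR1, whose call was lost without AAVS1. CLDN4, a claudin, rose from 116 and 114 CPM to 1208, 1134 and 1073 CPM with guides 2, 3 and 4 (log2 fold change 3.31, SE 0.078, edgeR adjusted p = 3.52e-15). DSC2 and DSG3, desmosomal cadherins, rose by log2 fold changes of 2.69 and 1.57, and JUP, plakoglobin, by 1.46. The member of the desmosome and adherens junction list that fell was EPCAM, an adhesion molecule of simple and progenitor epithelia (log2 fold change -0.79, edgeR adjusted p = 1.16e-07).

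The basal layer did not move as one. Of 22 basal and hemidesmosome genes tested, 10 rose and 6 fell, with a median log2 fold change of 0.31. LAMA3, a laminin alpha chain, rose from 168 and 182 CPM to 919, 1003 and 961 CPM with guides 2, 3 and 4 (log2 fold change 2.46, SE 0.075, edgeR adjusted p = 7.99e-14). PLEC, plectin, rose by 1.11. In contrast, COL17A1, the transmembrane collagen of hemidesmosomes, fell from 1401 and 1404 CPM to 868, 977 and 954 CPM (log2 fold change -0.59, edgeR adjusted p = 8.41e-07). The call lay close to the 1.5-fold minimum and was lost without guide 2, with RLE in place of TMM factors and in DESeq2. It was also lost in one fit of all 17 libraries (log2 fold change -0.62, edgeR adjusted p = 0.607). BCAM, a laminin receptor, and COL4A5 and COL4A6, type IV collagen chains, fell by 0.996, 0.762 and 0.750 on the log2 scale. Among 28 collagen and basement membrane genes, 9 rose and 12 fell. FREM2, of the Fraser complex, fell from 87.3 and 83.0 CPM to 3.27, 3.21 and 3.65 CPM (log2 fold change -4.65, edgeR adjusted p = 1.9e-14), and the glypicans GPC3 and GPC4, which carry heparan sulphate, fell by 3.05 and 2.14.

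Of 13 simple and columnar epithelium genes tested, out of 33 listed, 5 rose and 1 fell. KRT8, a keratin of simple epithelia, fell from 1269 and 1281 CPM to 577, 575 and 714 CPM (log2 fold change -1.04, edgeR adjusted p = 4.2e-07). KRT19, which marks simple and basal cells, rose from 219 and 234 CPM to 964 CPM with guide 2 (log2 fold change over all 3 guides 2.03, edgeR adjusted p = 4.22e-13). CEACAM6, a surface glycoprotein of columnar and also squamous cells, had a ratio of 895 (95% counting interval 306 to 4340). The list therefore held members in both directions, with a median of 0.97.

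Genes of matrix turnover and migration rose beside the differentiation genes. Of 22 mesenchymal genes tested, 13 rose and 4 fell (median log2 fold change 1.37), and of 25 proteases and inhibitors, 15 rose and 2 fell (0.89). PLAU, the protease urokinase, rose from 4.68 and 2.67 CPM to 254, 240 and 213 CPM with guides 2, 3 and 4 (log2 fold change 5.96, edgeR adjusted p = 7.08e-12), and the urokinase receptor PLAUR rose by 3.36. The enzyme and its receptor thus rose with every guide. VIM, vimentin, rose from 260 and 287 CPM to 1504, 1603 and 1391 CPM (log2 fold change 2.46, edgeR adjusted p = 1.85e-13), whereas CDH2, N-cadherin, fell from 201 and 208 CPM to 46.3, 53.6 and 64.5 CPM (log2 fold change -1.90, edgeR adjusted p = 2.87e-08). TGFBI, a matrix protein, and CTGF, a matricellular growth factor, fell as well, by 1.05 and 0.79.

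In the AP-1, Hippo, EGFR and BMP lists more members rose than fell. Of 22 AP-1 and immediate early genes, 14 rose and 2 fell (median log2 fold change 0.79). FOSL1, a Fos family subunit of AP-1, rose from 28.3 and 27.4 CPM to 118, 130 and 123 CPM (log2 fold change 2.14, edgeR adjusted p = 4.76e-12), JUN rose by 1.42 and KLF6 by 1.91, while EGR1 and NR4A1 fell by 0.75 and 0.85. Of 26 Hippo pathway genes, 13 rose and 2 fell, with AXL, a receptor tyrosine kinase, at 3.16 and TEAD4, the DNA-binding partner of YAP, at -0.64. The 2 that fell were 1 without the AAVS1 library. Of 22 EGFR pathway genes, 10 rose and 4 fell. HBEGF, an EGFR ligand, rose from 5.28 and 3.30 CPM to 47.1, 50.3 and 50.5 CPM (log2 fold change 3.48, edgeR adjusted p = 1.32e-11), and the feedback phosphatases DUSP4 and DUSP5 rose by 2.83 and 2.52, whereas BTC, another ligand, and SPRY1, a feedback inhibitor, each fell by 1.99. In the BMP and TGF-beta list, 11 of 30 rose and 6 fell. INHBA, the activin A subunit, rose by 4.95 and BMP7 fell by 1.49. The median of that list (0.32) was -0.03 on the log2(TPM + 1) scale.

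Interferon-induced genes rose as a group. Of 32 tested, out of 43 listed, 25 rose and 1 (HERC5) fell, with a median log2 fold change of 1.99. Without guide 4, 26 rose. Their summed level rose from 846 and 882 CPM to 1803, 1731 and 1495 CPM with guides 2, 3 and 4. IFIT2, an RNA-binding antiviral protein, rose from 0.498 and 1.14 CPM to 29.7, 24.5 and 22.9 CPM (log2 fold change 5.02, edgeR adjusted p = 1.16e-10), and IRF1, a transcription factor of the pathway, from 10.1 and 10.7 CPM to 38.4, 41.8 and 44.8 CPM (log2 fold change 2.01, edgeR adjusted p = 1.09e-09). OAS1, a sensor of double-stranded RNA chosen after its values were seen, had no control count and was at least 30.9-fold higher. B2M, the light chain of HLA class I, was among the more abundant members in the controls and rose from 145 and 144 CPM to 326, 292 and 268 CPM (log2 fold change 1.03, SE 0.083, edgeR adjusted p = 1.53e-08). HERC5, a ligase for the ubiquitin-like ISG15, fell by 0.66, a call lost without AAVS1.

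The promoter of B2M is shown because the core of the interferon-stimulated response element (GAAA, any 2 bases, GAAA) recurs in it (RefSeq, GRCh38.p14, chr15:44711267-44711566, plus strand, 5′ to 3′). Capitals mark this motif, which was searched on both strands and matched at 2 overlapping places.
B2M: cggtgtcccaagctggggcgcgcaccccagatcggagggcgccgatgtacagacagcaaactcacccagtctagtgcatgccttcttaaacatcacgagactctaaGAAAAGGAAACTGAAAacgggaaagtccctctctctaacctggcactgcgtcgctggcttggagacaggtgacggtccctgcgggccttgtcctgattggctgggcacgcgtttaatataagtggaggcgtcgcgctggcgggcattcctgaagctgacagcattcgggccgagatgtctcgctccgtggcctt
It occurred in 66.7% of the promoters of the interferon list (16 of 24) and in 2.67% of all promoters.

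Of 22 chemokines and cytokines tested, out of 36 listed, 15 rose and 3 fell, with a median log2 fold change of 3.15. In 4 of the 22 neither control had a count, so these passed the filter only through the knockout libraries. The summed level went the other way, from 1353 and 1299 CPM to 881, 842 and 708 CPM. CXCL14, a chemokine of epithelia, accounted for most of the sum in the controls and fell from 938 and 907 CPM to 97.9, 84.4 and 80.6 CPM (log2 fold change -3.39, SE 0.080, edgeR adjusted p = 3.52e-15). CX3CL1 and CXCL1, which attract leukocytes, fell by 2.77 and 0.81. The CXCL1 call was lost in one fit of all 17 libraries (edgeR adjusted p = 0.148). The members that rose were cytokines of the IL-1 family and others that were low in controls. IL1A, an alarm cytokine of keratinocytes, rose from 0.897 and 1.52 CPM to 42.8, 48.1 and 39.9 CPM (log2 fold change 5.19, edgeR adjusted p = 2.96e-12). IL36G, another epithelial member, had no control count and was at least 194-fold higher. TNFAIP3, a negative regulator of NF-kappaB, rose by 2.76.

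Most genes tested of the cell division cycle fell, by moderate amounts. Of 41 DNA replication genes, 33 fell and 0 rose, and of 38 mitosis genes, 32 fell and 0 rose. The medians were -0.83 and -0.84, and all 3 guides lay below both controls for 39 and 36 genes. The summed level of the replication list went from 4612 and 4284 CPM to 2491, 2572 and 2632 CPM, and that of the mitosis list from 5496 and 5485 CPM to 3045, 3232 and 3568 CPM with guides 2, 3 and 4. In bulk RNA, fewer cycling cells and less of these transcripts per cell cannot be told apart. Without guide 4, 33 members of each list fell. With a minimum change of 2-fold, 11 replication and 9 mitosis genes were called. MCM7, a subunit of the replicative helicase, was at 519 and 466 CPM in the controls and 264, 270 and 285 CPM after knockout (log2 fold change -0.85, SE 0.069, edgeR adjusted p = 1.73e-08), and MCM2 of the same helicase at 279 and 264 CPM and then 136 CPM with each guide. KIF20A, a kinesin of cytokinesis, was at 190 and 189 CPM and then 78.2, 78.1 and 88.2 CPM (log2 fold change -1.21, SE 0.077, edgeR adjusted p = 7.82e-10). CDK1, the mitotic kinase, fell by 1.09 and MYBL2, a cell cycle transcription factor, by 1.04.

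MCM7 and KIF20A are shown with their promoters as members of the 2 lists, each with a cell cycle motif marked (RefSeq, GRCh38.p14, 5′ to 3′; MCM7, chr7:100101348-100101647, minus strand; KIF20A, chr5:138178862-138179161, plus strand). Capitals mark GCGGGAA, an E2F motif, in MCM7 and CCAAT, the NF-Y motif, in KIF20A, where it reads ATTGG on the strand shown. CCAAT and ATTGG also occur in the MCM7 promoter, where they are not marked.
MCM7: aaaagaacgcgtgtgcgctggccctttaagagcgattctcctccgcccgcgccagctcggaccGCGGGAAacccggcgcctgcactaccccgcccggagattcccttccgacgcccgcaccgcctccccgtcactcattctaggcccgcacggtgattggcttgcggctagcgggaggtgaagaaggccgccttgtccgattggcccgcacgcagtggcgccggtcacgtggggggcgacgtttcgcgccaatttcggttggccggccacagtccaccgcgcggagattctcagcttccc
KIF20A: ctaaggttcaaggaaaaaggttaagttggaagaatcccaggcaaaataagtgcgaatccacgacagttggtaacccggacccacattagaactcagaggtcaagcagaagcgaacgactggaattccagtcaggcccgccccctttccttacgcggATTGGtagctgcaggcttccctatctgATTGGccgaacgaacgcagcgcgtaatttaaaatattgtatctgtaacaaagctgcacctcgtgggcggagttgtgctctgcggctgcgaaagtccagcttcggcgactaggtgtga
GCGGGAA on either strand occurred in 45.7% of the promoters of the replication list (16 of 35), in 9.38% of those of the mitosis list and in 10.4% of all. CCAAT on either strand occurred in 78.1% of those of the mitosis list (25 of 32), in 57.1% of those of the replication list and in 36.9% of all. The SOX core motif occurred in 0 of 35 and 0 of 32 promoters of the 2 lists.

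Of 16 cyclins and CDK inhibitors, 2 rose (12.5%, against 16.3% of all genes tested) and 5 fell (31.2%, against 13.6%). CDKN1A (p21), which arrests the cell cycle, rose from 102 and 130 CPM to 736, 699 and 609 CPM with guides 2, 3 and 4 (log2 fold change 2.56, SE 0.13, edgeR adjusted p = 2.78e-07). CCND1, cyclin D1, also rose, from 482 and 460 CPM to 1311, 1289 and 1231 CPM (log2 fold change 1.44, edgeR adjusted p = 1.2e-11), and its partner kinase CDK4 fell by 0.67. The list of p53 targets and DNA damage genes held 13 risen and 1 fallen of 28 (median 0.46). GADD45A, a stress-induced growth arrest gene, rose by 1.96 and GDF15, a stress cytokine, by 1.67, while DDB2, a sensor of damage by ultraviolet light, fell by 0.74. Both groups carried Cas9 and a guide that cuts. The paper reports that SOX2 and its candidate enhancers are co-amplified in KYSE140, and the number of sites cut in each group is not given. A response to cutting was not tested. Of 19 replication-dependent histone genes tested, 12 rose and 1 fell. HIST1H4H rose from 5.98 and 7.74 CPM to 36.8, 36.4 and 37.3 CPM (log2 fold change 2.44, edgeR adjusted p = 3.93e-10). These libraries were made from polyadenylated RNA, which leaves out most messenger RNA of such histone genes, so the values are those of their polyadenylated forms.

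Neural and neuroendocrine genes fell. Of 14 tested, out of 30 listed, 8 fell and 0 rose, with a median of -1.02. SCG2 (chr2:224461658-224467079), secretogranin II, fell from 249 and 208 CPM to 1.68, 0.875 and 1.15 CPM with guides 2, 3 and 4 (log2 fold change -7.44, SE 0.15, edgeR adjusted p = 1.29e-15), a 173-fold lower level. CHGB, chromogranin B, fell from 156 and 168 CPM to 3.43, 4.37 and 6.37 CPM (log2 fold change -5.12, edgeR adjusted p = 6.3e-12). Both granins, proteins of secretory granules, were near absent with every guide. ENO2, the neuronal enolase, fell by 1.98 and GAP43, a growth cone protein, by 0.96. Outside the lists, METTL7A, a methyltransferase-like protein, fell from 126 and 128 CPM to 6.38, 4.66 and 6.06 CPM (log2 fold change -4.44, edgeR adjusted p = 7.8e-15). Genes near 0 after knockout included C15orf54, with no count with any guide and a level at least 26.7-fold lower, and KLHDC8A and FAM65B, with ratios of control to knockout of 87.3 (95% counting interval 23.6 to 730.0) and 83.5 (35.3 to 259).

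Within the SOX family, 12 of 19 members were tested, 2 rose and 6 fell, and the fallen were 3 without the AAVS1 library. SOX15, a factor of stratified epithelia, rose from 10.7 and 8.76 CPM to 70.9, 77.5 and 64.2 CPM (log2 fold change 2.85, SE 0.13, edgeR adjusted p = 1.06e-11). SOX9, a progenitor factor of several epithelia, rose from 13.1 and 16.9 CPM to 92.1, 87.5 and 81.4 CPM (log2 fold change 2.55, edgeR adjusted p = 1.28e-11). SOX21, which belongs to the SOXB group as SOX2 does and was chosen after its values were seen, fell from 55.3 and 62.2 CPM to 8.29, 6.996 and 17.6 CPM (log2 fold change -2.40, edgeR adjusted p = 0.0142). As for SOX2, guide 4 left the highest SOX21 level of the 3 guides. SOX5 had 6 counts after knockout in all and a ratio of control to knockout of 18.9 (95% counting interval 8.25 to 53.2). SOX13 and SOX12 fell by 1.13 and 0.76.

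Pathways of growth and patterning moved in part. Over all genes tested 16.3% rose and 13.6% fell, and in the Notch list both shares were 26.1%. In the Notch list 6 of 23 rose and 6 fell, with the risen at 3 without AAVS1. HEY1, a target repressor, fell from 32.8 and 33.0 CPM to 2.39, 4.81 and 3.65 CPM (log2 fold change -3.25, edgeR adjusted p = 4.84e-10), the ligand JAG1 fell by 0.76, and the receptor NOTCH2 rose by 1.33. In the WNT list 6 of 35 rose (17.1%), near the share of all genes tested, and 10 fell (28.6%). Among the fallen were the receptors FZD1 and LRP5, by 1.58 and 1.20. In the FGF and IGF list 4 of 23 rose (17.4%), again near the share of all genes tested, and 9 fell (39.1%). The receptor FGFR2 fell from 158 and 177 CPM to 41.6, 49.9 and 58.8 CPM (log2 fold change -1.75, edgeR adjusted p = 6.01e-07). The pluripotency list had 3 of 16 members tested, of which LIN28B and TBX3 fell. LIN28B was not called with limma on log2(TPM + 1) (limma adjusted p = 0.0614). Without the Chr2.2 library TBX3 changed by -0.53, under the 1.5-fold minimum.

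Lists of metabolism, stress and survival held changes in both directions, as did all genes tested (16.3% risen, 13.6% fallen). Of 33 NRF2 targets, 9 rose and 6 fell (median -0.03). AKR1C3, an aldo-keto reductase, fell from 54.4 and 59.3 CPM to 0.638, 0.875 and 1.57 CPM (log2 fold change -5.80, edgeR adjusted p = 4.22e-13, counts not whole), and GSR, glutathione reductase, fell by 1.91, whereas the ferritin chains FTH1 and FTL rose by 1.61 and 1.46, FTH1 from 2422 and 2705 CPM to 8323, 7623 and 7567 CPM. Of 20 retinoid and aldehyde genes, 8 rose and 3 fell (median 0.37), with ALDH1A1, a retinal dehydrogenase, at -1.77 and ALDH1A3, its relative, at 2.08. Of 33 hypoxia and glycolysis genes, 11 rose and 3 fell (median 0.29), the fallen being 1 without AAVS1, and EPAS1 (HIF-2 alpha) rose by 2.54. Of 30 genes of ATF4 and the unfolded protein response, 9 rose and 3 fell, with PHGDH, of serine synthesis, at -1.20, and the sign of the list's median (0.03) turned with library size scaling (-0.17). Of 33 cholesterol and fatty acid genes, 3 rose (9.09%) and 6 fell (18.2%), with a median of -0.14. Of 28 apoptosis regulators, 9 rose (32.1%) and 1 fell (3.57%), with a median of 0.32, BIRC3 at 2.80 and BCL2 at -1.28. Cytosolic ribosomal protein genes (60 tested) and mitochondrially encoded genes (13) had no call in either direction, with medians of -0.10 and -0.04, and 2 of 52 nuclear oxidative phosphorylation genes fell (1 without AAVS1 or without guide 3).

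Genes of 3q26-q29, the arm that carries SOX2, had 5 risen and 9 fallen of 49 tested. The risen share was 10.2% against 16.3% of all genes tested, and the fallen share 18.4% against 13.6%. The number risen was 2 without AAVS1 and 3 without guide 4. CLDN1, a claudin, rose by 4.24 and USP13, a deubiquitinase, fell by 1.26. The CLDN1 call was lost without the AAVS1 library, where the log2 fold change was 4.09. The 653 genes of chromosome 3 before SOX2 had a median log2 fold change of -0.035 and the 105 genes from SOX2 to the end of the arm 0.013, both within the range of the medians of whole chromosomes, which lay between -0.105 (chromosome 13) and 0.079 (chromosome 19). In 10 Mb windows the median was -0.084 at 180 to 190 Mb, which holds SOX2. It was -0.204 at 160 to 170 Mb, -0.17 at 170 to 180 Mb and 0.136 at 190 to 200 Mb. Windows elsewhere on chromosome 3 lay between -0.23 (30 to 40 Mb) and 0.474 (80 to 90 Mb, 5 genes).

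Defining markers of cell types were compared. The 8 squamous markers summed to 9245 and 9327 TPM in controls and 49355, 46930 and 39230 TPM with guides 2, 3 and 4, and none was under 1 TPM. Among them TP63 went the other way, from 167 and 182 TPM to 56.9, 64.3 and 78.5 TPM. The 4 general epithelial markers (EPCAM, CDH1, KRT8 and KRT18) summed to 2044 and 2146 TPM in controls and to 1235, 1302 and 1572 TPM after knockout, with KRT8 the largest part of the sum in each library and CDH1 alone higher with every guide than in both controls. Fibroblast markers summed to 32.75 and 37.04 TPM and then 50.5, 48.6 and 57.2 TPM, with 6 of 10 under 1 TPM in every library; of the 3 tested, COL1A1 rose by 2.17 and PDGFRA fell by 5.06. Leukocyte markers summed to 5.40 and 5.62 TPM and then 64.3, 72.0 and 56.5 TPM, with 4 of 10 at 0 in every library. CD68, a lysosomal protein that other cells also make, accounted for most of that sum and rose by 4.14 (edgeR adjusted p = 1.16e-12). Endothelial markers stayed at or under 1.79 TPM in sum, and VWF alone was called, with overlapping groups and a call lost without AAVS1, guide 2 or guide 4.

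The 3 guides agreed closely in direction. For guide pairs measured against different controls, which share no library, the log2 fold changes over 11023 genes correlated with Pearson's r between 0.930 and 0.958 and Spearman's rho between 0.830 and 0.893. These are descriptions across genes, which are not independent replicates, and the infection and library preparation may be shared. Guide 4 gave the smaller changes: the median log2 fold change of risen genes was 1.25, 1.22 and 1.14 with guides 2, 3 and 4, and that of fallen genes -1.02, -0.999 and -0.92. Guide 4 had the smallest change of the 3 guides in 1290 of 2272 risen and 1009 of 1904 fallen genes.

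Each guide was also tested against the other 2, within a fit of all 5 libraries. The spread in each test came from the 2 controls and the 2 remaining guides, since a single library has none. For guide 4 the remaining guides were 2 and 3, the closest pair. For guides 2 and 3 the remaining pair included guide 4, which stood apart and widens the spread. The tests thus differed in power, and their numbers of genes do not rank the guides. Guide 2 differed at 6 genes (0.0429% of genes tested), guide 3 at 1 gene (0.00715%) and guide 4 at 144 genes (1.03%). At an unadjusted p under 0.05 the numbers were 804, 325 and 1714. The 6 genes of guide 2 were RABGEF1, PIK3R2, MSANTD3-TMEFF1, RP11-438J1.1 and 2 overlapping entries named SLC5A3, 1 higher and 1 lower. All 6 entries had estimated counts that were not whole in at least 1 library. The gene of guide 3 was the noncoding AJ271736.10, with no count in that library. With guide 4, 36 genes were higher and 108 lower than with the other guides. Of the 108 lower genes, 85 had risen after knockout and 0 had fallen, and of the 36 higher genes, 24 had fallen and 3 had risen. Guide 4 thus differed mostly at genes called after knockout, where it gave the smaller change, and the 2 comparisons share their libraries.

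The genes lower with guide 4 included members of several lists: 23 of 47 cornified envelope genes, 5 of 17 keratins, 4 of 9 clade B serpins and 4 of 32 interferon genes were lower. S100A7 was lower by 1.82 on the log2 scale with guide 4 (SE 0.12, edgeR adjusted p = 2.88e-09), SBSN by 1.21 (SE 0.095, edgeR adjusted p = 4.69e-08) and CDSN by 1.10 (edgeR adjusted p = 2.38e-07). Among the higher genes were SOX2 itself (0.88) and FBN2, the matrix protein fibrillin 2, which was at 986 and 1006 CPM in controls and at 100.2, 101 and 211 CPM with guides 2, 3 and 4 (guide 4 against the others, 1.07, SE 0.083, edgeR adjusted p = 2.45e-08). NTRK2, a neurotrophin receptor, was at 77.5 and 92.9 CPM in controls and at 5.10, 4.96 and 13.9 CPM after knockout. The fall of FBN2 and NTRK2 over all guides (log2 fold changes -2.86 and -3.41, edgeR adjusted p = 0.0155 and 0.0103) was no longer called without either control library, nor was that of FBN2 without guide 2 or guide 3. None of the 41 replication genes and none of the 38 mitosis genes was called between guides by edgeR. The count for guide 4 depended on the tool, at 69 genes with DESeq2 and 3 with limma on log2(TPM + 1).

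SOX2 was also lowered in KYSE140 by repression of e1, an enhancer of SOX2, by CRISPR interference. The guides were sg-e1#1 and sg-e1#2 (2 libraries), against the control guides sg-NC#1 and sg-NC#2 (2 libraries), with a different guide in each library. The 2 effects were compared by an interaction term over these 9 libraries. SOX2 itself changed by -1.30 after knockout and -1.57 after e1 repression, a difference of 0.27 (SE 0.44, edgeR adjusted p = 0.718), so the transcript was lowered to a degree not distinguished by the test, although knockout also alters the protein. Of 14455 genes tested, the interaction was called at 2425 (16.8%), with 1219 of them more positive and 1206 more negative after knockout. Cas9 and guides that cut were present in 1 experiment and a repressor in the other, and this and the experiment itself cannot be told apart from the difference between the 2 ways of lowering SOX2.

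The division genes separated the 2 experiments. DNA replication and mitosis lists had medians of -0.83 and -0.84 after knockout and -0.10 and -0.13 after e1 repression, and 29 of 41 and 23 of 38 members were lower in knockout by the interaction term. TP63 fell more after knockout (-1.24 against -0.62, difference -0.61, edgeR adjusted p = 5.7e-05). Squamous genes rose more after knockout. The cornified list had medians of 6.51 and 3.00, with 12 of 47 members higher in knockout by the test and 0 lower, and the keratin list had medians of 3.56 and 1.75, with 8 of 17 higher and 0 lower. KRT5 changed by 1.92 after knockout and 0.39 after e1 repression (difference 1.53, SE 0.088, edgeR adjusted p = 1.99e-10). PPL and KRT19 went in opposite directions relative to their own controls. The values were 1.86 and -0.47 for PPL (difference 2.33, SE 0.11, edgeR adjusted p = 2.91e-11) and 2.01 and -1.07 for KRT19 (difference 3.08, SE 0.12, edgeR adjusted p = 5.6e-11). KRT19 was at 226 and 241 CPM in knockout controls but at 493 and 407 CPM in e1 controls, and at 201 and 229 CPM after e1 repression. PPL had like levels in both sets of controls (141 and 139, 143 and 151 CPM). Tight junction genes (10 of 19) and squamous regulators (11 of 24, with 2 lower) were likewise higher in knockout.

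**Figure D4:**
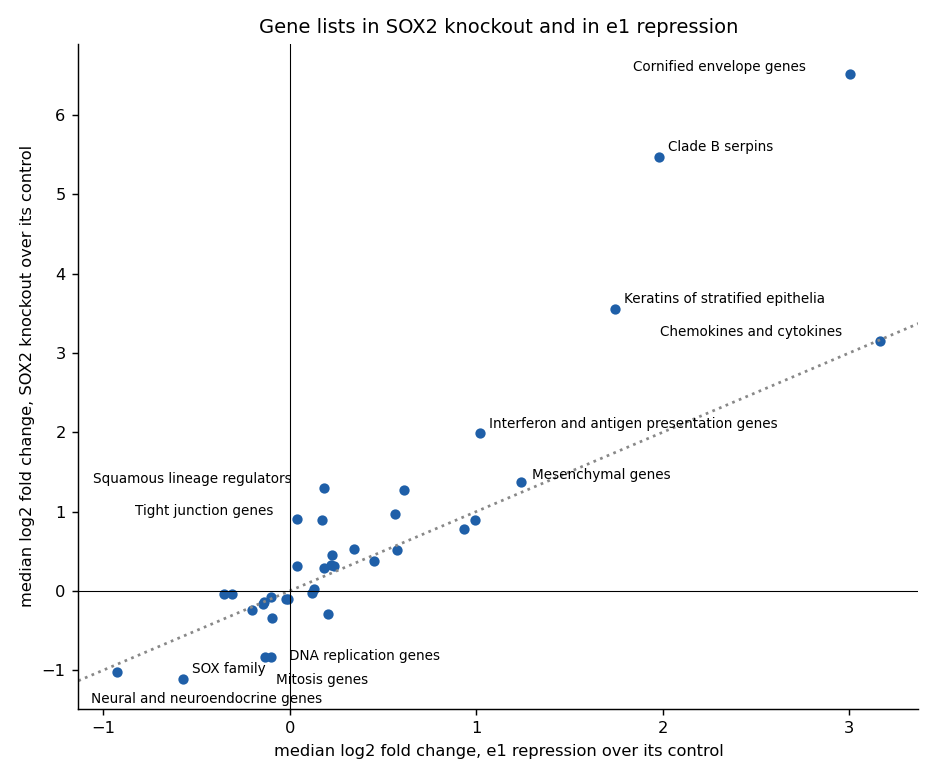
Median log2 fold change of each gene list after e1 repression (horizontal axis) and after SOX2 knockout (vertical axis) in KYSE140, with a dotted line where both are equal. DNA replication and mitosis lists lie near -0.83 after knockout and near -0.1 after e1 repression, and cornified, keratin and serpin lists lie above the line.

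Other genes were higher after e1 repression and little changed after knockout. CAV1, caveolin, had log2 fold changes of 0.12 after knockout and 1.67 after e1 repression (difference -1.56, SE 0.079, edgeR adjusted p = 2.91e-11). PTHLH, the parathyroid hormone-related protein of squamous tumours, had 0.03 and 1.60 (difference -1.58, SE 0.091, edgeR adjusted p = 1.55e-10), and THBS1, the matrix glycoprotein thrombospondin, 0.05 and 1.36 (difference -1.31). In the knockout fit alone the sign of these 3 values turned with library size or TPM scaling. Control levels of the 3 genes were higher in the knockout experiment. CAV1 was at 750 and 708 CPM in knockout controls and 508 and 540 CPM in e1 controls. For PTHLH these were 218 and 207 against 96.7 and 99.0 CPM, and for THBS1 1897 and 1828 against 947 and 1045 CPM. Whether the starting levels bear on the differences was not tested. CNTNAP2, a neurexin family adhesion protein, fell by 2.70 after knockout and was 1.48 higher after e1 repression (difference -4.19, SE 0.23, edgeR adjusted p = 8.57e-11). In the mesenchymal list 2 of 22 members were higher and 7 lower in knockout, and in the EGFR list 2 of 22 were higher and 8 lower.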

How the data were processed

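RNA-seq libraries of polyadenylated RNA, prepared with a directional kit, were analysed from Cas9-expressing KYSE140 pools with a SOX2 guide (n = 3) or a control guide (n = 2). Per the labels, the authors aligned reads with Bowtie2 and estimated expected counts and TPM per gene with RSEM on hg19; versions and the strand setting are not given in the sources used here. The deposited expected counts were rounded. Genes with enough counts (filterByExpr, minimum 10 counts) were scaled with TMM factors and tested with edgeR 4.0.16 (R 4.3.3) by the robust quasi-likelihood test with Benjamini-Hochberg adjustment, and called at an adjusted p under 0.05 and a change over 1.5-fold. SE values come from the same fits. The deposited TPM values served for marker sums and for limma 3.58.1 on log2(TPM + 1) or log2(TPM + 0.1), and DESeq2 1.42.0 was a further alternative. Guides were compared in a fit with each guide against the other 2, and the 2 experiments in an interaction over 9 libraries. Samples were grouped by their labels. A bound for a gene with no count in a group uses 3 counts over that group. Of 57820 genes, 96.05% matched GENCODE release 44 on GRCh37, which gave coordinates. Counting limits the precision: 3 counts correspond to 0.413 CPM in the shallowest libraries and 0.223 CPM in the deepest. In data simulated with 200 genes changed 3-fold, the knockout test recovered 194 with 19 false calls, that of 1 guide against 2 recovered 183 with 23, and the interaction 173 with 12. These were far fewer changed genes than the 4176 called here, all of them well counted, and in the knockout test changed equally with every guide. The simulation therefore does not measure recovery of genes absent from the controls or of genes that differ between guides.

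The libraries and the 41 gene lists were chosen with earlier results of these data known. Genes were named by rule: 9 genes of the locus and its regulators, the called genes with the smallest p or the largest change in each direction, up to 4 risen and 4 fallen members of each list, the top genes of each guide and of the interaction, and the genes with most counts. Genes named after their values were seen are marked as such. Alternatives were other scalings, filters, fold minimums and tests, a fit of all 17 libraries, and leaving out each library.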

Additional observations from a re-analysis of the deposited data

Results flagged for a closer look

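One result met the rule for a difference between groups under the same contrast. The effects of SOX2 knockout and of e1 repression in KYSE140 differed at 2425 of 14455 genes by the interaction term in edgeR's quasi-likelihood test, 1219 of them higher and 1206 lower in knockout, and 1589 of them were also called in the knockout comparison itself. No group of these 5 libraries was large enough for a search for single distant values.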

How the results depend on the processing

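Of the 242 named genes called after knockout, 205 were called in every alternative that tested them, 37 lost the call in at least 1, and 0 changed direction. Leaving out 1 library at a time gave 3615 to 4258 calls (1988 to 2275 risen, 1627 to 1983 fallen), and 2021 to 2785 for the interaction. With library size alone 3021 genes fell and 1907 were lower in the interaction, and limma on log2(TPM + 1) and log2(TPM + 0.1) gave 1477 and 1512 risen genes, where the median gene lay below 0. A 2-fold minimum gave 2336 calls (1405 risen, 931 fallen) and no minimum fold 7257 (3749 risen, 3508 fallen), as these settings are built to do. In TPM, all guides lay above both controls at 3096 genes. SOX2 was called in 7 of 15 alternatives: its log2 fold change came to -1.27 in DESeq2, -1.28 in the exact test and, without the robust option (added after seeing the data), again -1.28, to -1.31 in one fit of all 17 libraries and to -1.53 and -1.54 in limma, and ranged from -1.63 (without guide 4) to -1.08 over libraries left out. For guide 2, the calls were 3 without the robust option (0 higher), 36 without a filter (20 higher, 16 lower) and 0 with limma (0 higher, 0 lower), with 4 higher at a mean of at least 50 counts and 1 higher with DESeq2. For guide 3 they were 0 without the robust option, at a mean of 50 counts and with DESeq2 (0 lower in each), 2 with library size (2 lower), 24 without a filter (8 higher, 16 lower) and 5 with limma (2 higher, 3 lower). For guide 4, 65 were higher without a filter, DESeq2 gave 69 (16 higher, 53 lower) and limma 3 (3 higher, 0 lower). The cause of these changes was not tested. The sign turned for CAV1 (-0.060 by library size, -0.0400 and -0.0401 with limma), PTHLH (-0.15, -0.12 and -0.12) and THBS1 (-0.13, -0.11 and -0.11), none of them called. No paired analysis was made, since the labels pair no knockout library with a control library. For the interaction, a block on the guide numbers of the CRISPR interference libraries gave 2347 calls (1180 higher, 1167 lower). The deviations of same-numbered libraries correlated at -0.017 over 14455 genes, so the number gave no sign of a pairing. Depth limited mainly the genes with no control count, for which only bounds are given.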
